A study of Mus musculus with 10 samples.

Results

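The genes described here are those of central carbon metabolism in mouse alveolar macrophages: the glucose and lactate transporters and the enzymes of glycolysis, the pentose phosphate pathway, pyruvate entry into mitochondria and the tricarboxylic acid (TCA) cycle, together with Fbp1, which opposes phosphofructokinase. They were chosen by name from these pathways, 53 genes in all, of 26173 genes in the table. Of the 53, 52 were found in the table and 51 reached at least 1 FPKM (fragments scaled by transcript length and by library depth) in at least 2 columns, as did 11336 genes of the whole table. Aldoc was not analysed here, and Slc2a3, a glucose transporter, was listed at 0 in every column.

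RNA was sequenced from alveolar macrophages of C57BL/6 mice of 16 weeks, all labelled female, in 10 samples that form 5 groups of 2. The conditional line carries a floxed Bach2 gene and Cre driven by Cd4; one group was labelled as its control (the conditional control). Knockout mice of the line gave a population with the surface marker phenotype of controls (the normal-marker library) and a population with an aberrant one (the aberrant-marker library). The remaining groups were wild-type mice and mice with a germline knockout of Bach2. Bach2 is a transcription repressor of lymphocytes and macrophages, and the series asks what alveolar macrophages lose or gain without it. Cd4 drives Cre in T cells, so Bach2 may be intact in the macrophages of that line. Whether the conditional controls carried the floxed allele, Cre or both, and how many mice gave each sample, was not given in the sources used here.

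Glycolysis takes glucose to pyruvate, with committed steps at hexokinase, phosphofructokinase and pyruvate kinase, and lactate dehydrogenase turns pyruvate to lactate. The pentose phosphate pathway leaves glycolysis at glucose phosphate: its oxidative arm makes NADPH, which fuels lipid synthesis and the reduction of glutathione, and its non-oxidative arm passes sugar phosphates between pentoses and glycolysis. Pyruvate dehydrogenase feeds the TCA cycle, which oxidises acetyl groups in mitochondria. Alveolar macrophages live in an airspace poor in glucose and rich in surfactant lipid, and are known for a strong reliance on oxidative metabolism.

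The 2 columns of a group agreed nearly as repeat runs of 1 library would. Their correlation over genes on the log2(FPKM + 1) scale was 0.993 to 0.998 in 5 pairs, against 0.685 to 0.853 in the 40 pairs of columns from different groups. Of genes at 1 to 3 FPKM in one column, 0.0471 to 0.379% were at exactly 0 in the partner, against 13.7 to 20.9% between groups. Each pair was therefore counted as 1 library with 2 runs. With 1 library a group, differences cannot be set against a spread between replicates, and p-values are not given. Between runs, members at 20 FPKM or more differed by a median of 0.0209 to 0.0387 log2 units, and by at most 0.244 (Pdha1 in the aberrant-marker library). Depth, estimated from the lowest values, was about 7.6 to 9.26 M fragments a column. A single read from a 2 kb transcript then adds 0.054 to 0.0658 FPKM.

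Cell markers differed between the libraries in ways that touch the comparisons below, and Y-linked transcripts separated wild type and the germline knockout from the conditional line. Bach2 itself stood at 0.0761 FPKM or less in all 10 columns, so its level does not check the genotype labels. All 17 alveolar macrophage markers in the table reached 1 FPKM in both control libraries and the normal-marker library. In the aberrant-marker library 14 did, and in the germline knockout 13. Siglec5, a defining surface lectin of these cells, stood at 0.0526 and 0.215 FPKM in the aberrant-marker library and at 0 and 0.0493 in the germline knockout, against 199 and 194 in the conditional control. In the germline knockout this list was split: Marco stood at 13.5 FPKM against 339 in wild type, but Chil3 at 46574 against 9278. The summed level was highest there, at 49978 to 50223 FPKM, against 20981 to 21249 in wild type. It was 9666 to 9800 FPKM in the aberrant-marker library, 18430 to 18869 in the conditional control and 36908 to 37177 in the normal-marker library. Of 13 dendritic cell markers, 11 reached 1 FPKM in the aberrant-marker library, with a summed level of 7274 to 7282 FPKM. In the conditional control 7 did, with a sum of 38.4 to 42.5 FPKM, and in the normal-marker library 7, with 100.3 to 111. Wild type had 3, with 65 to 72.2 FPKM, and the germline knockout 7, with 457 to 466. Of 8 markers of monocyte-derived and interstitial macrophages, 6 reached 1 FPKM in the aberrant-marker library (summed level 908 to 912 FPKM) and 6 in the germline knockout (386 to 391 FPKM), the libraries in which the pentose phosphate genes below were lowest in sum. In the conditional control 4 did (14.2 to 14.5 FPKM), in the normal-marker library 3 (39.2 to 45.4 FPKM) and in wild type 0. C1qa, a complement gene of this list, stood at 193 FPKM in both runs of the aberrant-marker library and 34.4 and 32.7 in the germline knockout, and was listed at 0 elsewhere. Of 12 T cell markers, 10 reached 1 FPKM in the aberrant-marker library and at most 2 in any other, with Cd3e at 17.5 and 17.9 FPKM there and listed at 0 elsewhere. Their summed level was not higher there: 310 to 315 FPKM, against 331 to 334 in the conditional control and 447 to 464 in wild type. It was 267 to 270 FPKM in the normal-marker library and 66 to 67.2 in the germline knockout. Cd2, on the same list, went the other way from Cd3e, at 45.7 FPKM in the aberrant-marker library against 330 in the conditional control. Of 20 proliferation genes, 18 to 20 reached 1 FPKM in both control libraries and the normal-marker library, with summed levels of 440 to 500.2 FPKM. In the aberrant-marker library 6 did (98.9 to 106 FPKM), and in the germline knockout 13 (113 to 115 FPKM). The part of these shifts in any result on the metabolic genes was not tested, and in bulk RNA fewer cells of a type and less RNA per cell cannot be told apart. The Y-linked gene Ddx3y stood at 23.9 and 24.6 FPKM in wild type and 6.92 and 7.44 in the germline knockout and at 0 in the 3 libraries of the conditional line, although all samples were labelled female. Eif2s3y, also Y-linked, stood at 58.5 and 63.1 FPKM in wild type, 41.1 and 38.7 in the germline knockout and 0.146 or less in the conditional line. Xist went the other way, at 0.00472 FPKM or less in wild type and the germline knockout and 3.72 to 10 in the conditional line. Of the 49 members matched to a chromosome, G6pdx, Idh3g, Pdha1 and Pgk1 lie on the X chromosome.

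Members were compared on log2(FPKM + 1). A gene was called where the 2 library means, and every choice of 1 run from each, lay at least 2 log2 units (4-fold) apart and the higher library reached 20 FPKM; a 2-fold rule with the same floor was counted beside it. Between the aberrant-marker library and the conditional control, 2 members were higher (Hk3 and Fbp1) and 4 lower (Slc16a3, G6pdx, Idh1 and Idh3a) by the 4-fold rule, where 4.09% of all tested genes were higher and 3.76% lower. By the 2-fold rule 2 were higher and 13 lower, where 8.6% of all tested genes were higher and 9.13% lower. Most members are abundant, which raises the share that can pass the floor: of the 40 members at 20 FPKM or more in either of these libraries, 5% were higher and 32.5% lower by the 2-fold rule, against 20.8% and 22.1% of the 4682 such genes in the whole table. By the 4-fold rule 5% of these members were higher and 10% lower, against 9.91% and 9.1% of such genes.

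The normal-marker library differed from the conditional control in few members. Hk3 and Fbp1 were higher and none lower by the 4-fold rule (0.935% of all tested genes higher, 0.838% lower), and the 2-fold rule added Fh1 on the lower side (3.34% higher, 4.04% lower). Among the 41 members at 20 FPKM or more in either library, 4.88% were higher and 0% lower by the 4-fold rule. Of all such genes 2.48% were higher and 2.22% lower. Between the 2 populations of the conditional knockout, G6pdx, Idh1 and Idh3a were lower in the aberrant-marker library by the 4-fold rule and none higher (3.26% of all tested genes lower, 4.02% higher); 13 members were lower by the 2-fold rule and none higher (8.19% lower, 9.27% higher). Of the 41 members at 20 FPKM or more in either library of that pair, 31.7% were lower by the 2-fold rule, against 20.2% of all such genes, and 0% higher, against 22.8%. By the 4-fold rule 7.32% of these members were lower and 0% higher, against 8.02% and 9.91% of such genes. Between the germline knockout and wild type, Hk1, Hk3 and Fbp1 were higher by the 4-fold rule and none lower (2.73% higher, 3.36% lower), and 6 were higher and 5 lower by the 2-fold rule (6.13% higher, 8.98% lower). Of the 41 members at 20 FPKM or more there, 14.6% were higher and 12.2% lower by the 2-fold rule, against 15.6% and 22.9% of all such genes. By the 4-fold rule 7.32% of these members were higher and 0% lower, against 6.96% and 8.56% of such genes. Between the 2 control libraries no member passed the 4-fold rule (0.935% of all tested genes higher in wild type, 1.17% lower), and 2 members were higher and 2 lower by the 2-fold rule (3.81% higher, 4.15% lower). The median log2 difference over members was -0.23 for aberrant-marker against conditional control, 0.16 for normal-marker against conditional control and -0.57 for aberrant-marker against normal-marker. It was 0.06 for germline knockout against wild type and -0.13 for wild type against conditional control. Medians over all tested genes were 0 to 0.02. Over the genes at 20 FPKM or more in either library they were -0.03, -0.09, 0.07, -0.14 and 0.02 in the same order. The comparisons of the aberrant-marker, normal-marker and wild-type libraries with the conditional control share that library, so their values are given side by side only.

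**Figure D1:**
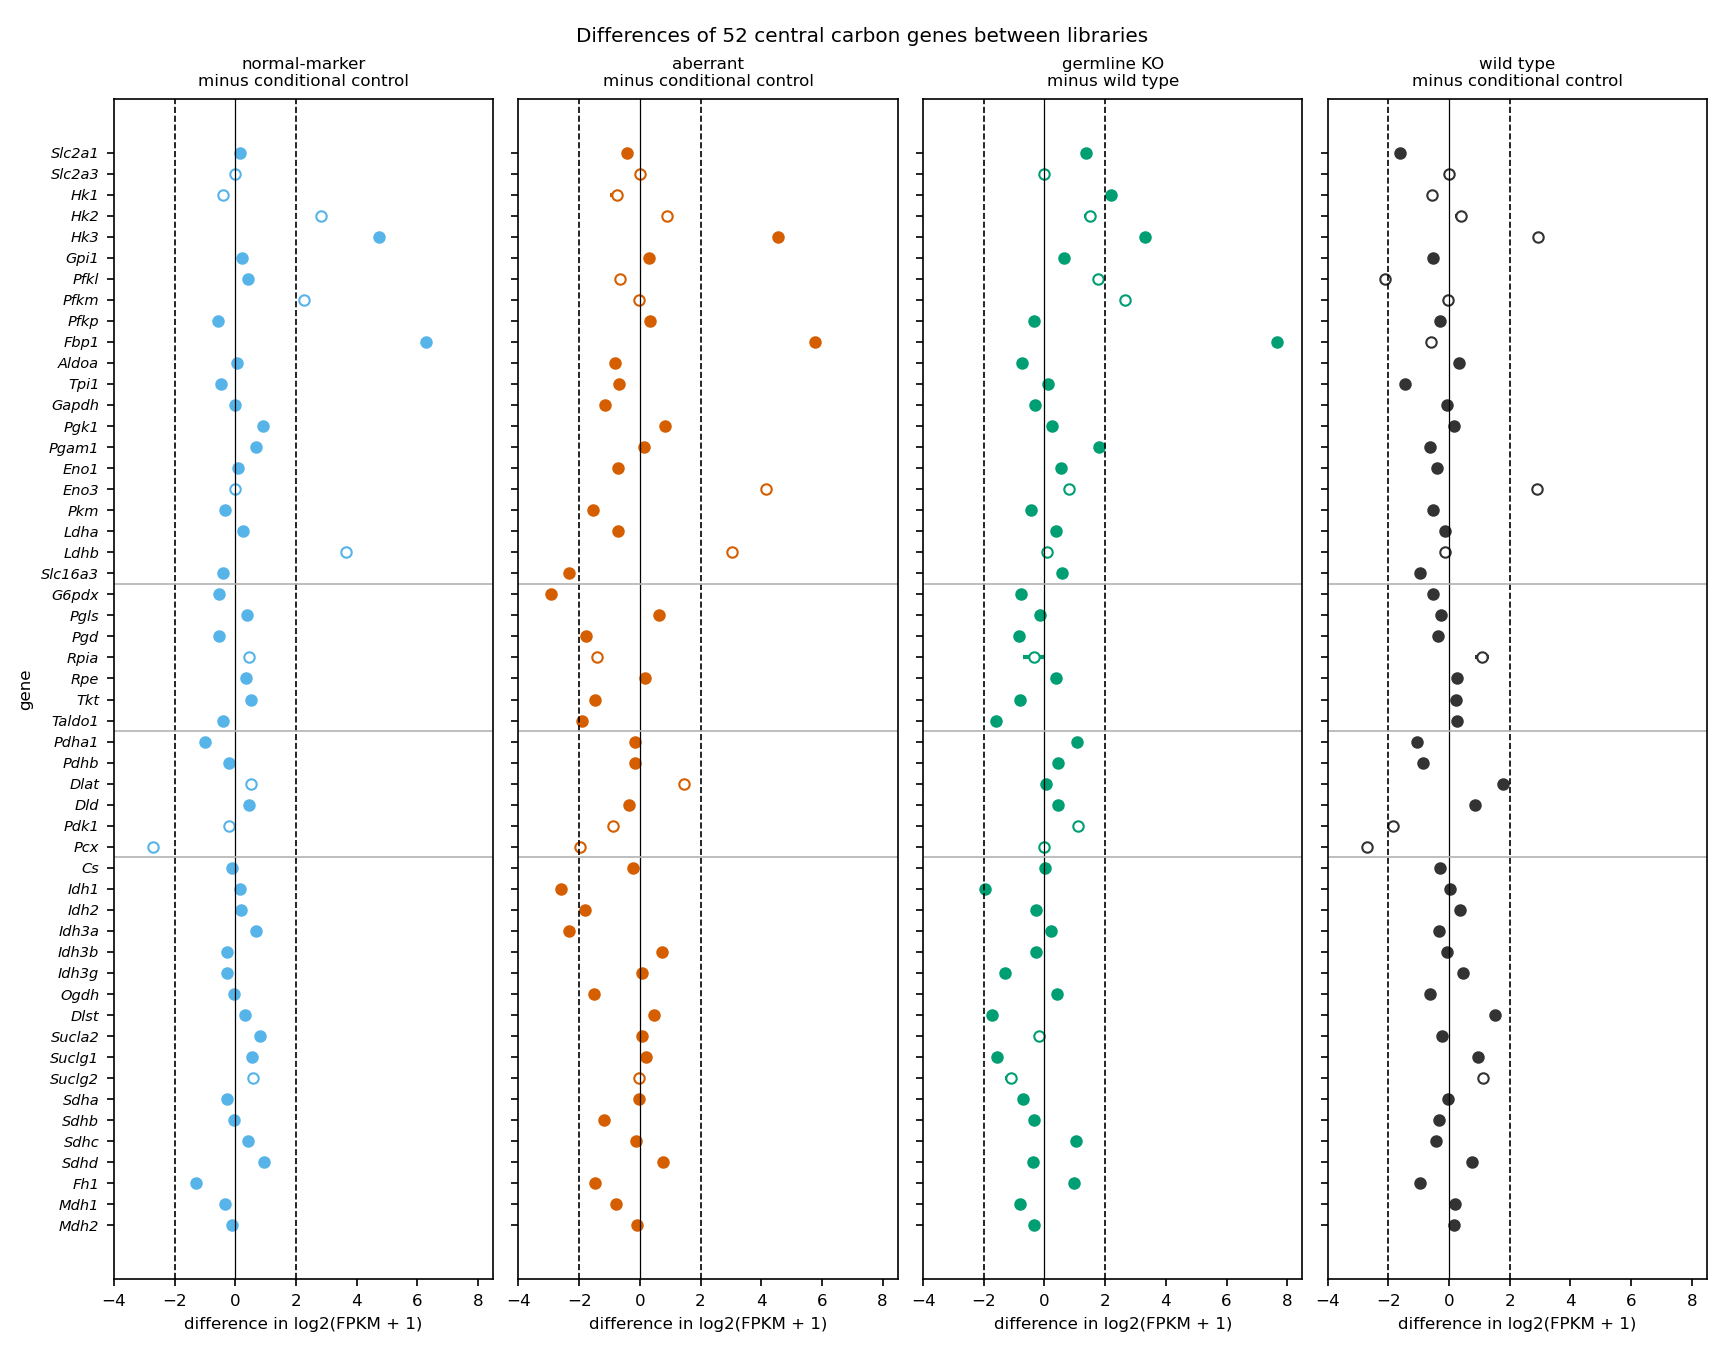
Difference in log2(FPKM + 1) of each of the 52 members between library means in 4 comparisons, genes in pathway order from glucose uptake to malate dehydrogenase; filled points reached 20 FPKM in the higher library, open points did not, short lines span the choices of 1 run per library, and dashed lines mark the 4-fold threshold. Fbp1 lies far to the right in the 3 knockout comparisons and left of 0 between the 2 controls, and G6pdx, Pgd, Tkt, Taldo1, Idh1, Idh2 and Idh3a lie well to the left of 0 in the aberrant-marker panel.

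Because the 2 control libraries also differed from each other, members were set against both at once. Fbp1 was higher than both controls by the 4-fold rule in all 3 knockout libraries, and Hk3 joined it by the 2-fold rule. The share of all tested genes higher than both controls was 0.388% for the normal-marker library, 3.01% for the aberrant-marker library and 1.36% for the germline knockout by the 4-fold rule, and 1.51%, 6.34% and 3.6% by the 2-fold rule. G6pdx and Idh1 were lower than both controls by the 4-fold rule in the aberrant-marker library, where 2.13% of tested genes were. By the 2-fold rule, 9 members were lower than both there (Gapdh, Pkm, G6pdx, Pgd, Tkt, Taldo1, Idh1, Idh2 and Idh3a) where 5.58% of tested genes were, and 2 of them, Taldo1 and Idh1, were also lower than both in the germline knockout, where 4.82% were. No member was lower than both controls in the normal-marker library, where 0.265% of tested genes were by the 4-fold rule and 1.48% by the 2-fold rule.

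Fbp1 encodes fructose bisphosphatase, the gluconeogenic enzyme that turns fructose bisphosphate back to fructose phosphate and so runs against phosphofructokinase. Fbp1 stood at 0.581 and 0.593 FPKM in conditional controls, 126 and 120.4 in the normal-marker library and 87.9 and 85.3 in the aberrant-marker library. Fbp1 stood at 0.0921 and 0 FPKM in wild type and 210.1 and 216 in the germline knockout. Both control libraries were at or near 0 and the 3 knockout libraries were at 85.3 FPKM or more. By the 4-fold rule 0.388% of all tested genes were higher than both controls in the normal-marker library. The shares were 3.01% in the aberrant-marker library and 1.36% in the germline knockout. The share higher in all 3 at once is not given here. At the estimated depth these levels correspond to about 7.95 and 7.94 reads in the conditional control and 1.23 and 0 in wild type, against 989 to 2584 in the 6 columns of the knockout libraries. On the log2(FPKM + 1) scale the difference was 6.29 for the normal-marker library against the conditional control, 5.79 for the aberrant-marker library and 7.68 for the germline knockout against wild type; with so few reads in the controls these sizes depend on the pseudocount of 1 FPKM. The aberrant-marker library differed from the normal-marker library by -0.51.

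The 3 phosphofructokinase genes, which commit fructose phosphate to glycolysis, did not share this pattern. Pfkp, the platelet isoform, stood at 99.7 and 103 FPKM in conditional controls, 69.1 and 67.6 in the normal-marker library and 128 and 125 in the aberrant-marker library. Pfkp stood at 83.5 and 81 FPKM in wild type and 64.4 and 65.5 in the germline knockout. Pfkp made up 72 to 96.3% of the summed phosphofructokinase FPKM. Pfkl, the liver isoform, stood at 17.3 and 16.2 FPKM in conditional controls, 22.6 and 22.7 in the normal-marker library and 10.2 and 10.5 in the aberrant-marker library. Pfkl stood at 3.17 and 3.1 FPKM in wild type and 13.9 and 12.4 in the germline knockout. Wild type was the lowest library for it. Pfkm, the muscle isoform, stood at 0 and 0.041 FPKM in conditional controls, 3.84 and 3.97 in the normal-marker library and 0 in both runs in the aberrant-marker library. Pfkm stood at 0 FPKM in both runs in wild type and 4.64 and 5.96 in the germline knockout. Pfkm was thus found in the normal-marker and germline knockout libraries and was at or near 0 in the other 3, always under the floor of 20 FPKM. Summed over the 3 genes, phosphofructokinase was 118 FPKM in conditional controls and 85.4 in wild type. It was 94.9 FPKM in the normal-marker library, 137 in the aberrant-marker library and 83.4 in the germline knockout. The ratio of Fbp1 to that sum was 0.00497 in conditional controls. It was 1.3 in the normal-marker library, 0.631 in the aberrant-marker library and 2.55 in the germline knockout. In the normal-marker and germline knockout libraries Fbp1 mRNA therefore exceeded all phosphofructokinase mRNA per length, and in the aberrant-marker library it did not. As a log2 ratio with 1 FPKM added to both terms, the values were -6.23 in conditional controls and -6.37 in wild type. They were 0.37 in the normal-marker library, -0.66 in the aberrant-marker library and 1.34 in the germline knockout.

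**Figure D2:**
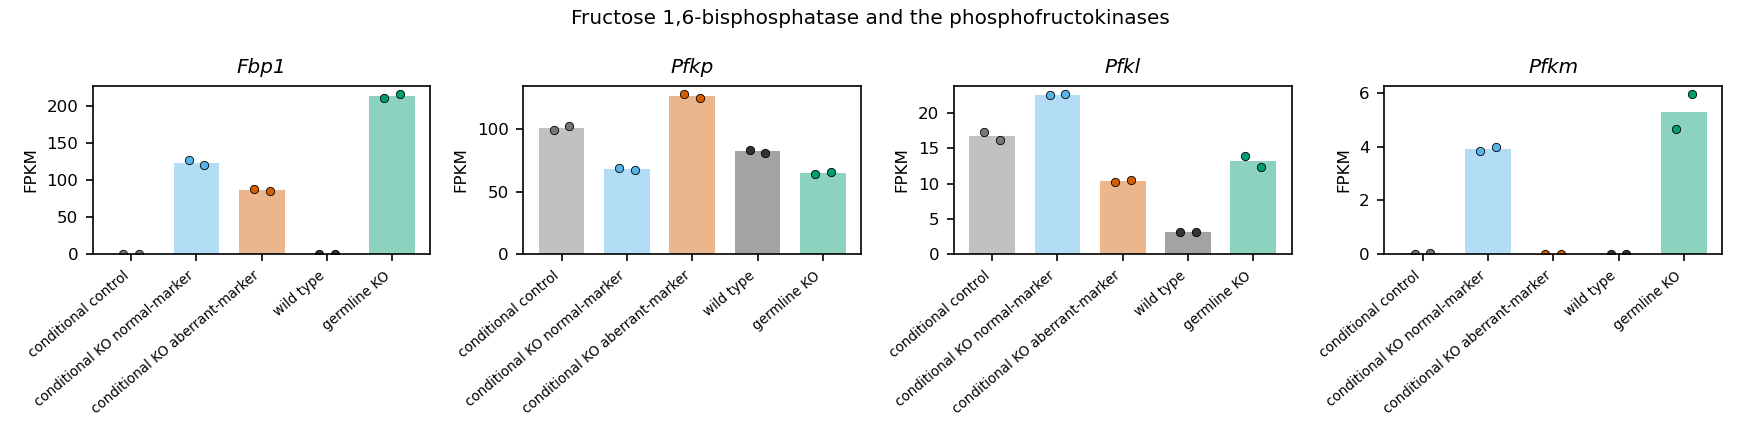
FPKM (vertical axes from 0, each with its own range) of Fbp1, Pfkp, Pfkl and Pfkm in the 5 libraries; bars are the mean of the 2 runs of a library and points the runs. Fbp1 is at or near 0 in both controls and at 85.3 to 216 in the knockout libraries, while Pfkp varies between 64.4 and 128.

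Hexokinase traps glucose in the cell as glucose phosphate and has several isoenzymes. Hk3, an isoenzyme typical of myeloid cells, stood at 0.24 and 0.16 FPKM in conditional controls, 31.4 and 31 in the normal-marker library and 27.4 and 26.4 in the aberrant-marker library. Hk3 stood at 7.49 and 8.67 FPKM in wild type and 90.9 and 89.2 in the germline knockout. It was near 0 in the conditional control, low in wild type and highest in the germline knockout; the controls did not overlap, so the size of its difference depends on which control is used. Against their own controls the log2(FPKM + 1) differences were 4.75 in the normal-marker library, 4.54 in the aberrant-marker library and 3.33 in the germline knockout; against wild type the normal-marker library differed by 1.83 and the aberrant-marker library by 1.62, under the 4-fold threshold. Hk1, the widely expressed isoenzyme, stood at 8.85 and 8.65 FPKM in conditional controls, 6.47 and 6.22 in the normal-marker library and 4.01 and 5.45 in the aberrant-marker library. Hk1 stood at 5.5 and 5.7 FPKM in wild type and 28.2 and 29.7 in the germline knockout. Only the germline knockout stood out, by 2.18 log2 units from wild type and 1.62 from the conditional control. Hk2, the isoenzyme induced in many activated and growing cells, stood at 1.75 and 1.93 FPKM in conditional controls, 19.4 and 19 in the normal-marker library and 4.4 and 4.26 in the aberrant-marker library. Hk2 stood at 2.34 and 3.11 FPKM in wild type and 9.25 and 9.79 in the germline knockout. The normal-marker library was highest, and Hk2 stayed under the floor of 20 FPKM in every column.

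The share of Hk3 in summed hexokinase FPKM was 1.85% in conditional controls and 49.2% in wild type. It was 55% in the normal-marker library, 74.8% in the aberrant-marker library and 70.1% in the germline knockout. Hk1 made up 81.1% in the conditional control and between 11.2% and 34.2% in the other 4 libraries. Shares of this kind do not depend on how libraries are scaled to each other. Hk3 was the main hexokinase mRNA in every library but the conditional control.

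**Figure D3:**
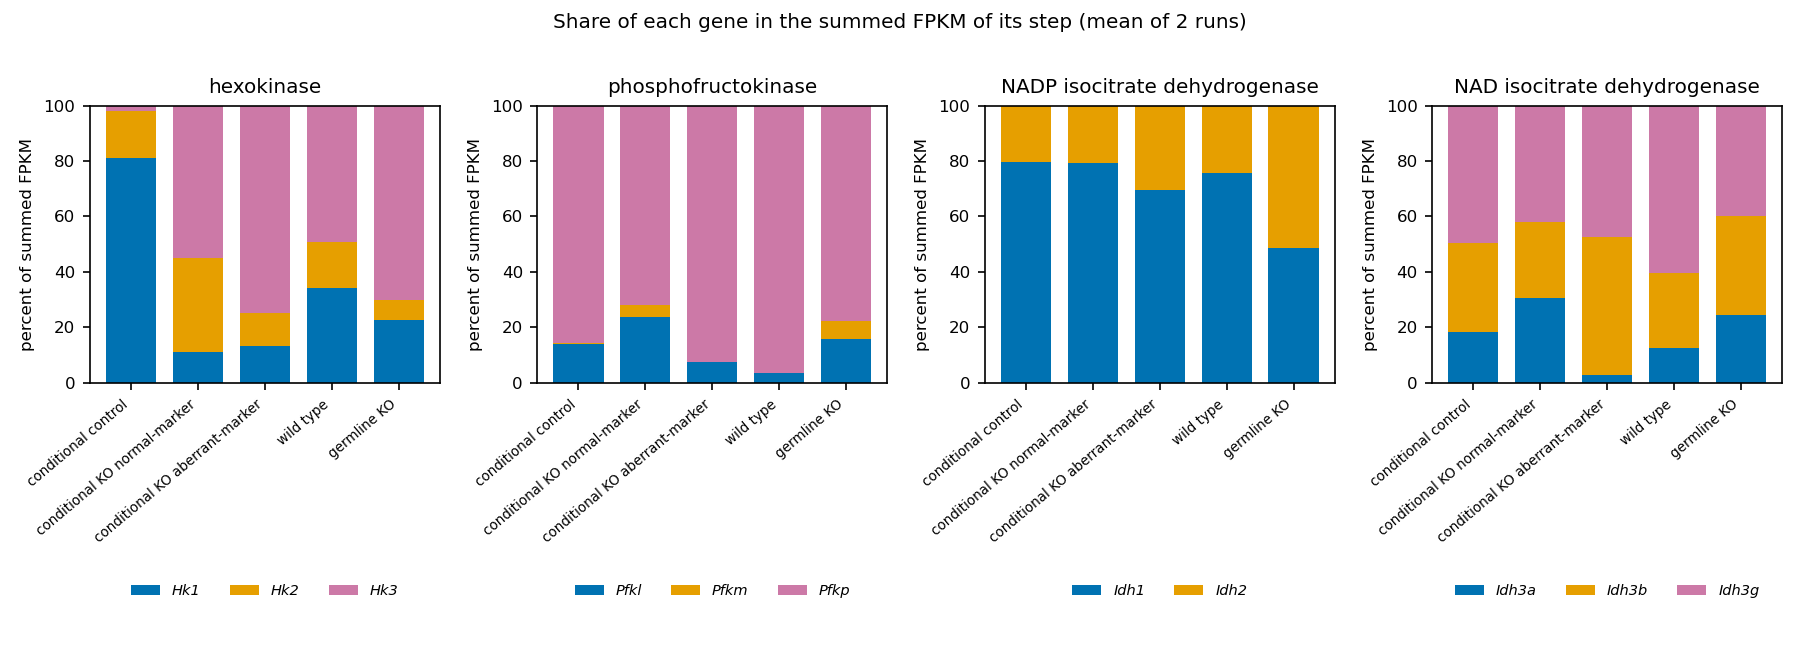
Share (percent, vertical axis from 0 to 100) of each gene in the summed FPKM of its step, from library means, for hexokinase, phosphofructokinase and the NADP-linked and NAD-linked isocitrate dehydrogenases in the 5 libraries. Hk1 leads in the conditional control and Hk3 elsewhere, Idh1 makes up 48.6% of the NADP-linked enzyme in the germline knockout against 69.7 to 79.6% elsewhere, and Idh3a 2.98% of the NAD-linked enzyme in the aberrant-marker library.

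Fbp1 and Hk3 are the members higher than both controls in all 3 knockout libraries by the 2-fold rule with its floor of 20 FPKM. The 250 bases before their transcription starts are therefore shown, from RefSeq on GRCm38.p6, read in the direction of the gene. They were searched on both strands for TGANTCA, the core shared by AP-1 sites and the Maf recognition elements bound by Bach proteins, and for TGACNNNGC, the antioxidant response element; capitals mark a match, here of the second motif in reverse complement, 56 bases before the Fbp1 start. The Fbp1 window is chr13:62888283-62888532 and the Hk3 window chr13:55021386-55021635, both on the minus strand.
Fbp1: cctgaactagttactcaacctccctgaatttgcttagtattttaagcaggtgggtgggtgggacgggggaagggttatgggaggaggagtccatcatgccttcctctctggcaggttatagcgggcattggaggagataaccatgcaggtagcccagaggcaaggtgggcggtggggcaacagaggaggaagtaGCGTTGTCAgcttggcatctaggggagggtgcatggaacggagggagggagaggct
Hk3: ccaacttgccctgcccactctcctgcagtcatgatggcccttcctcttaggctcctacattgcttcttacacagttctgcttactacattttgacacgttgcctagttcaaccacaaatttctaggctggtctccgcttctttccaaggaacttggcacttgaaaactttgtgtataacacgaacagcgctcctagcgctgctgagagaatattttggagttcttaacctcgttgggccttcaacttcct
The Hk3 window held neither motif. Across the mouse promoters in the RefSeq table, TGANTCA was found in 6.75% of 32851 windows of this length and TGACNNNGC in 10.2%. Of 68 windows of the 49 member genes matched, 1 held TGANTCA (Aldoa) and 7 held TGACNNNGC (10.3%; Aldoa, Dlst, Fbp1, G6pdx, Hk1, Idh3g and Sucla2), and in Aldoa the 2 matches overlap. These are matches of letters and show no binding.

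Slc2a1 is the basal glucose transporter. Slc2a1 stood at 32.2 and 30.4 FPKM in conditional controls, 34.4 and 36 in the normal-marker library and 22.8 and 23.9 in the aberrant-marker library. Slc2a1 stood at 9.16 and 9.95 FPKM in wild type and 25.6 and 26.8 in the germline knockout. Wild type was the lowest library and the other 4 lay at 22.8 FPKM or more, which gave differences of 1.36 for the germline knockout against wild type and -1.61 between the controls. The step of glucose phosphate isomerase (Gpi1) ranged over 74.2 to 132 FPKM in library means. Among the shared lower steps, Aldoa (aldolase) stood at 1481 FPKM in both runs in conditional controls, 1553 and 1552 in the normal-marker library and 836 and 838 in the aberrant-marker library. Aldoa stood at 1873 and 1848 FPKM in wild type and 1095 and 1126 in the germline knockout. Gapdh (glyceraldehyde phosphate dehydrogenase) ranged over 835 to 1866 FPKM, Eno1 (the main enolase) over 348 to 652 and Pkm (pyruvate kinase) over 216 to 637, and each was lowest in the aberrant-marker library.

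Pkm, which makes pyruvate and ATP at the last step, stood at 632 and 642 FPKM in conditional controls, 505 and 503 in the normal-marker library and 218 and 213 in the aberrant-marker library. Pkm stood at 447 and 444 FPKM in wild type and 329 and 331 in the germline knockout. Pkm and Gapdh were lower in the aberrant-marker library than in the conditional control by the 2-fold rule, with differences of -1.56 and -1.16 log2 units, and lower than in wild type as well. The lower steps did not move together: Pgk1 (phosphoglycerate kinase) was 0.82 and Pgam1 (phosphoglycerate mutase) 0.12 in the same comparison, against -0.82 for Aldoa and -0.68 for Tpi1 (triose phosphate isomerase). Pgam1 ranged over 109.9 to 380.3 FPKM, with the germline knockout highest and 1.78 log2 units above wild type, a 2-fold call. The summed FPKM of the 12 members from Gpi1 to Pkm, Fbp1 left out, was 5151 in conditional controls and 4917 in wild type. It was 5257 in the normal-marker library, 2907 in the aberrant-marker library and 4267 in the germline knockout. Aldoa and Gapdh supply most of it. Gapdh, Eno1 and Pgam1 have processed pseudogenes, so their estimates could be split among copies; Eno1b, the copy of Eno1 in the table, was at 2.07 FPKM or less. Eno3, the muscle enolase, stood at 0 FPKM in both runs in conditional controls, 0 in both runs in the normal-marker library and 18.5 and 15.1 in the aberrant-marker library. Eno3 stood at 7.25 and 5.74 FPKM in wild type and 11.8 and 12.6 in the germline knockout. Eno3 was thus found in 3 libraries, always under the floor.

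Next come the genes of lactate handling. Ldha, the lactate dehydrogenase subunit that favours lactate formation, stood at 402 and 397 FPKM in conditional controls, 477 and 476 in the normal-marker library and 246 and 243 in the aberrant-marker library. Ldha stood at 362 and 371 FPKM in wild type and 465 and 482 in the germline knockout. Ldha passed neither rule in any comparison. Ldhb, the subunit of oxidative tissues, stood at 0 and 0.195 FPKM in conditional controls, 13 and 12.3 in the normal-marker library and 7.98 and 8.23 in the aberrant-marker library. Ldhb stood at 0 FPKM in both runs in wild type and 0.102 and 0 in the germline knockout. It was found in both populations of the conditional knockout, under the floor, and hardly in the other 3 libraries. Slc16a3, the lactate exporter MCT4, stood at 30 and 27.5 FPKM in conditional controls, 21.1 and 21.4 in the normal-marker library and 5.03 and 4.65 in the aberrant-marker library. Slc16a3 stood at 15 and 13.8 FPKM in wild type and 23.2 and 20.7 in the germline knockout. It was lowest in the aberrant-marker library, with a difference of -2.35 log2 units from the conditional control and -1.93 from the normal-marker library. Against wild type the same difference was -1.40, under the 4-fold threshold.

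Next come the enzymes of the pentose phosphate pathway. In the aberrant-marker library 4 of its 7 members (G6pdx, Pgd, Tkt and Taldo1) were lower than in the conditional control by the 2-fold rule and none higher, with a median difference of -1.49 against 0.00 over all tested genes, of which 9.13% were lower (22.1% of those at 20 FPKM or more). The same 4 were lower than in the normal-marker library, with a median of -1.49. There 8.19% of all tested genes were lower by that rule (20.2% of those at 20 FPKM or more). In the germline knockout 1 member (Taldo1) was lower than in wild type by the 2-fold rule, and the median was -0.78. Of all tested genes 8.98% were lower there (22.9% of those at 20 FPKM or more), so this count does not stand out. In the normal-marker library none passed either rule and the median was 0.37, where 3.34% of all tested genes were higher and 4.04% lower by the 2-fold rule. Summed over the 7 genes, the pathway was 1866 FPKM in conditional controls and 1972 in wild type. It was 1628 FPKM in the normal-marker library, 775 in the aberrant-marker library and 905 in the germline knockout.

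G6pdx encodes glucose phosphate dehydrogenase, the entry and rate-setting enzyme of the oxidative arm. It stood at 96.6 and 95.8 FPKM in conditional controls, 65.6 and 66.3 in the normal-marker library and 12 and 11.8 in the aberrant-marker library. G6pdx stood at 67.3 and 66.6 FPKM in wild type and 37.4 and 39.5 in the germline knockout. The aberrant-marker library was lower, with a difference of -2.92 log2 units from the conditional control (-2.93 to -2.90 over the choices of runs) and -2.38 from the normal-marker library. The germline knockout lay -0.78 from wild type, short of 2-fold. Pgd, which makes the second NADPH of the arm, stood at 323 and 329 FPKM in conditional controls, 226 and 222 in the normal-marker library and 97.5 and 90.5 in the aberrant-marker library. Pgd stood at 253 and 251 FPKM in wild type and 144 and 139 in the germline knockout. The order of library means was that of G6pdx, with differences of -1.78 for aberrant-marker against conditional control and -0.83 for germline knockout against wild type.

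Pgls, the lactonase between these enzymes, went the other way. It stood at 187 and 189 FPKM in conditional controls, 245 and 249 in the normal-marker library and 300.0 and 286 in the aberrant-marker library. Pgls stood at 153 and 163 FPKM in wild type and 144 and 139 in the germline knockout. Pgls was highest in the library where G6pdx and Pgd were lowest. Its share of the summed oxidative arm was 73.4% in the aberrant-marker library and 30.8% in the conditional control. The ratio of G6pdx to Pgls, which no scaling between libraries can change, was 0.512 in conditional controls and 0.424 in wild type. It was 0.268 in the normal-marker library, 0.0406 in the aberrant-marker library and 0.272 in the germline knockout.

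In the non-oxidative arm, Taldo1 and Tkt carry carbon back to glycolysis. Taldo1 (transaldolase) stood at 1047 and 1031 FPKM in conditional controls, 776 and 794 in the normal-marker library and 285 and 272 in the aberrant-marker library. Taldo1 stood at 1242 and 1233 FPKM in wild type and 410.2 and 415 in the germline knockout. In the controls it was among the most abundant members per length. The aberrant-marker and germline knockout libraries were the lowest, at -1.90 and -1.58 log2 units from their own controls, and the normal-marker library lay between them and the controls. Tkt (transketolase) stood at 190.0 and 187 FPKM in conditional controls, 267 and 269.7 in the normal-marker library and 65.1 and 68.3 in the aberrant-marker library. Tkt stood at 218 and 221 FPKM in wild type and 124 and 123 in the germline knockout. Here the aberrant-marker library was lowest (-1.49 from the conditional control) and the normal-marker library highest (0.51). The isomerase Rpia stood at 2.39 and 1.99 FPKM in conditional controls, 3.19 and 3.54 in the normal-marker library and 0.231 and 0.156 in the aberrant-marker library. Rpia stood at 6.47 and 5.14 FPKM in wild type and 3.6 and 5.08 in the germline knockout. Rpia was too low to pass the floor in any library. Rpe, the epimerase of the same sugars, stood at 26.3 and 27.7 FPKM in conditional controls, 34.2 and 36.2 in the normal-marker library and 31.8 and 29.7 in the aberrant-marker library. Rpe stood at 33.3 and 31.9 FPKM in wild type and 44.7 and 41.6 in the germline knockout. Rpe passed no rule, so not every enzyme of the arm was lower.

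**Figure D4:**
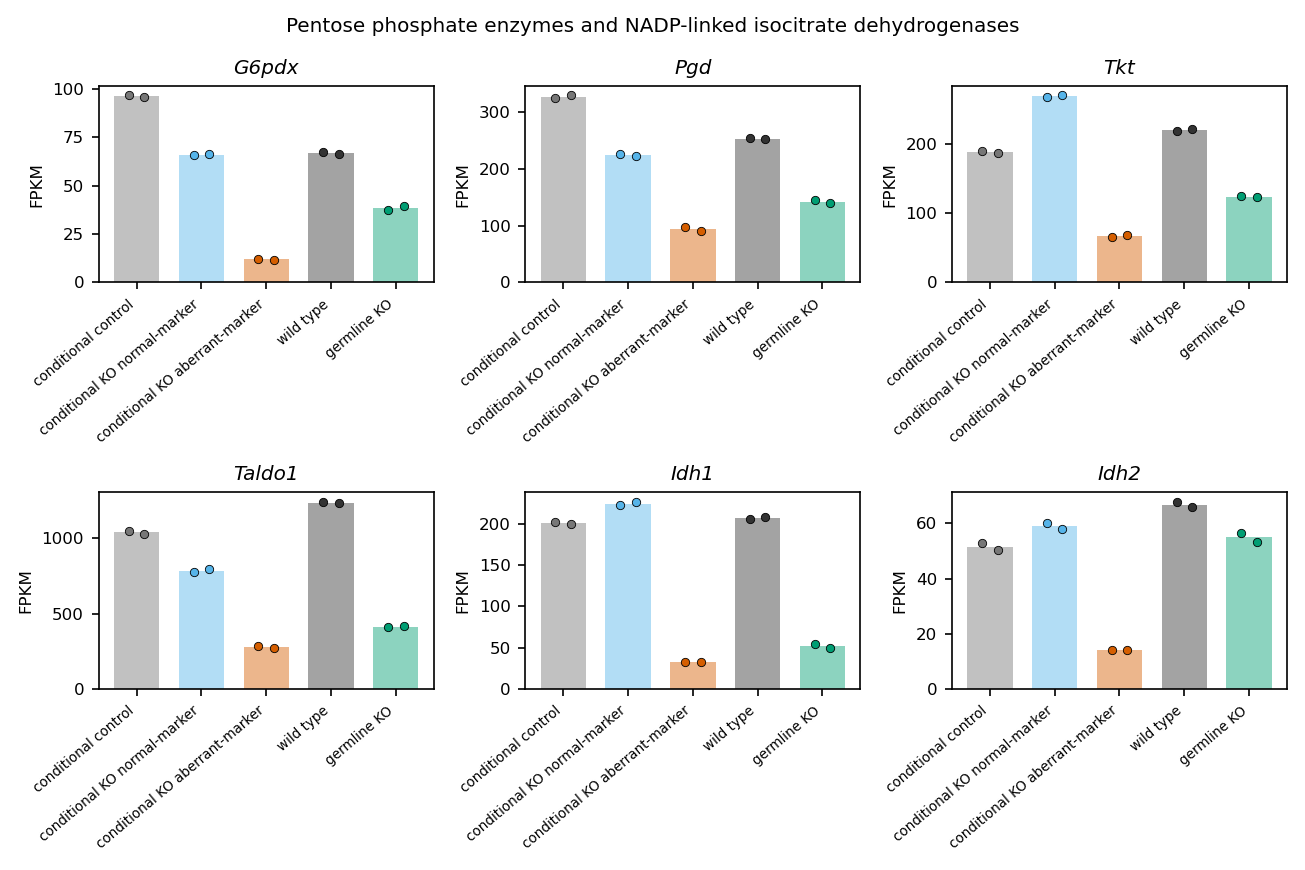
FPKM (vertical axes from 0, each with its own range) of G6pdx, Pgd, Tkt, Taldo1, Idh1 and Idh2 in the 5 libraries; bars are the mean of the 2 runs of a library and points the runs. The aberrant-marker library is lowest in all 6 panels, and the germline knockout is second lowest for all but Idh2, where the conditional control is.

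The windows of 250 bases before the starts of G6pdx and Taldo1, the former with 4-fold calls and the latter lower in both the aberrant-marker and germline knockout libraries, are shown for the same motifs. They lie at chrX:74428881-74429130 on the minus strand and chr7:141391910-141392159 on the plus strand. The capitals in G6pdx mark TGACNNNGC in reverse complement, 57 bases before the start; the Taldo1 window held neither motif.
G6pdx: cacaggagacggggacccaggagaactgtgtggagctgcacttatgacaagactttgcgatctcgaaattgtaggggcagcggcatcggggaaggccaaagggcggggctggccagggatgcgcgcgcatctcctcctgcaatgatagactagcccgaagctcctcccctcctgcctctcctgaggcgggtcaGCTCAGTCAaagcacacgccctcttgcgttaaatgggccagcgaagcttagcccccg
Taldo1: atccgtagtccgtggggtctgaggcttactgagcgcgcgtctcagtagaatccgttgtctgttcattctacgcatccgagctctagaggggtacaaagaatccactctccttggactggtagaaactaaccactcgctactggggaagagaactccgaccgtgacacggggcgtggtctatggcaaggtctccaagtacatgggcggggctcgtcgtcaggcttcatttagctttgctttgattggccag
G6pdx, lower in the aberrant-marker library, and Fbp1, higher in it, each hold a match to the same motif.

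The other cytosolic and mitochondrial sources of NADPH among the members are the NADP-linked isocitrate dehydrogenases. Idh1, the cytosolic enzyme, stood at 202 and 200.2 FPKM in conditional controls, 222 and 227 in the normal-marker library and 32.6 and 32.4 in the aberrant-marker library. Idh1 stood at 206 and 208 FPKM in wild type and 53.9 and 49.9 in the germline knockout. The conditional control, normal-marker and wild-type libraries lay close together, and the aberrant-marker and germline knockout libraries lay far below them: the difference was -2.59 log2 units for aberrant-marker against conditional control, -2.75 against the normal-marker library and -1.98 for germline knockout against wild type, just under the 4-fold threshold. Idh2, the mitochondrial enzyme, stood at 52.8 and 50.4 FPKM in conditional controls, 60.3 and 58.1 in the normal-marker library and 14 and 14.3 in the aberrant-marker library. Idh2 stood at 67.8 and 65.7 FPKM in wild type and 56.5 and 53.4 in the germline knockout. It was lower in the aberrant-marker library (-1.80, a 2-fold call) and passed no rule in the germline knockout (-0.28). Idh1 therefore made up 48.6% of the pair in the germline knockout and 69.7% in the aberrant-marker library, against 79.6% in the conditional control and 75.6% in wild type. The 4 members that make NADPH, G6pdx, Pgd, Idh1 and Idh2, summed to 675 FPKM in conditional controls and 593 in wild type. Their sum was 573 FPKM in the normal-marker library, 153 in the aberrant-marker library and 287 in the germline knockout.

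Other genes of NADPH supply and of the pentose branch, 14 in the table, were counted beside them. In the aberrant-marker library 3 were lower than in the conditional control by the 4-fold rule (3.76% of all tested genes) and none higher: H6pd, the hexose phosphate dehydrogenase of the endoplasmic reticulum, at 0.0466 against 26.8 FPKM, Prps2, which makes the nucleotide precursor from ribose phosphate, at 1.79 against 23.2, and Gsr, the glutathione reductase that spends NADPH, at 31.1 against 255. In the germline knockout 2 were lower than in wild type (3.36% of all tested genes) and none higher: H6pd at 2.13 against 22.9 FPKM and Me2, a mitochondrial malic enzyme, at 3.3 against 87. None passed the 4-fold rule between the normal-marker library and the conditional control or between the controls. By the 2-fold rule 0 were higher and 4 lower in the aberrant-marker library (8.6% and 9.13% of all tested genes). In the germline knockout 2 were higher and 4 lower (6.13% and 8.98%), and in the normal-marker library 1 was higher and 0 lower (3.34% and 4.04%).

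None of the 6 members of pyruvate entry passed either rule in the aberrant-marker, normal-marker or germline knockout library against its own control. By the 2-fold rule 8.6% of all tested genes were higher and 9.13% lower in the aberrant-marker library. These shares were 3.34% and 4.04% in the normal-marker library and 6.13% and 8.98% in the germline knockout. Pdk1 and Pcx never reached the floor of 20 FPKM, so they could not be called. The branch medians were -0.26, -0.20 and 0.44 in the same order. Pdha1, the catalytic subunit of pyruvate dehydrogenase, stood at 47.4 and 45.2 FPKM in conditional controls, 22.2 and 22.7 in the normal-marker library and 45 and 37.9 in the aberrant-marker library. Pdha1 stood at 19.9 and 23.7 FPKM in wild type and 47.7 and 46.8 in the germline knockout. The conditional control, aberrant-marker and germline knockout libraries were about level, and the normal-marker and wild-type libraries were lower. Its differences of -1.01 for normal-marker against conditional control and 1.08 for germline knockout against wild type did not hold 2-fold in every choice of runs. Dlat, the acetyltransferase core, stood at 5.17 and 5.56 FPKM in conditional controls, 8.3 and 8.02 in the normal-marker library and 15.8 and 17 in the aberrant-marker library. Dlat stood at 19.4 and 22.3 FPKM in wild type and 21.8 and 21.9 in the germline knockout. It was lowest in the conditional control, and was higher in wild type by the 2-fold rule (1.78). Dld, the shared lipoamide dehydrogenase, stood at 49.1 and 51.3 FPKM in conditional controls, 70.7 and 68.4 in the normal-marker library and 38.9 and 39 in the aberrant-marker library. Dld stood at 93.4 and 91.2 FPKM in wild type and 125 in both runs in the germline knockout. Pdhb, which forms the first enzyme of the complex with Pdha1, ranged over 38.1 to 70 FPKM in library means.

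Pdk1, the kinase that switches pyruvate dehydrogenase off, stood at 11.6 and 11.8 FPKM in conditional controls, 9.79 and 10.3 in the normal-marker library and 6.01 and 5.82 in the aberrant-marker library. Pdk1 stood at 2.35 and 2.63 FPKM in wild type and 6.63 and 6.32 in the germline knockout. Pdk1 was under the floor in every column. Pcx, pyruvate carboxylase, which refills the cycle with oxaloacetate and opens gluconeogenesis, stood at 5.42 and 5.53 FPKM in conditional controls, 0 in both runs in the normal-marker library and 0.65 and 0.665 in the aberrant-marker library. Pcx stood at 0 FPKM in both runs in wild type and 0 in both runs in the germline knockout. Fbp1 and Pcx, both enzymes of gluconeogenesis, had different patterns: Pcx was above 1 FPKM only in the conditional control, where Fbp1 was below 1. Of 20 other genes of gluconeogenesis and glycogen in the table, 14 passed the filter on low values. By the 4-fold rule 1 of them, Pgm2, was higher in the normal-marker library than in the conditional control (0.935% of all tested genes). None was higher in the aberrant-marker library (4.09%) or the germline knockout (2.73%) against its own control. Pygl was lower in both of these libraries (3.76% and 3.36% of all tested genes lower).

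In the TCA cycle, citrate synthase (Cs), the entry enzyme, stood at 106 FPKM in both runs in conditional controls, 98.8 and 97.3 in the normal-marker library and 90.2 and 89.7 in the aberrant-marker library. Cs stood at 85.9 and 86.4 FPKM in wild type and 89.1 and 87 in the germline knockout. The largest of its differences was -0.29 between the controls. Mdh2, mitochondrial malate dehydrogenase, stood at 395 and 389 FPKM in conditional controls, 362 and 367 in the normal-marker library and 362 and 371 in the aberrant-marker library. Mdh2 stood at 439 and 432 FPKM in wild type and 349.5 and 337 in the germline knockout. Sdha, the catalytic subunit of succinate dehydrogenase, stood at 129 and 131 FPKM in conditional controls, 111 and 107 in the normal-marker library and 127 in both runs in the aberrant-marker library. Sdha stood at 126 and 128 FPKM in wild type and 78.6 and 76.1 in the germline knockout. Cs, Mdh2 and Sdha passed no rule in any comparison. Of the 18 members, 2 were lower in the aberrant-marker library than in the conditional control by the 4-fold rule (Idh1 and Idh3a) and 6 by the 2-fold rule (adding Idh2, Ogdh, Sdhb and Fh1), none was higher, and the median was -0.11. Of all tested genes 3.76% were lower by the 4-fold rule and 9.13% by the 2-fold rule, and 22.1% by the 2-fold rule among those at 20 FPKM or more. In the germline knockout 4 were lower than in wild type by the 2-fold rule (Idh1, Idh3g, Dlst and Suclg1), 1 was higher (Sdhc), and the median was -0.34. Of all genes at 20 FPKM or more 22.9% were lower and 15.6% higher there, so the count of lower members is near the background.

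The 3 subunits of the NAD-linked isocitrate dehydrogenase, which work as one complex, did not move together. Idh3a, the catalytic subunit, stood at 35.1 and 37.2 FPKM in conditional controls, 59 and 57.8 in the normal-marker library and 6.23 and 6.46 in the aberrant-marker library. Idh3a stood at 28.7 and 27.7 FPKM in wild type and 33.3 and 33.2 in the germline knockout. The aberrant-marker library was far below the rest, at -2.34 log2 units from the conditional control and -3.02 from the normal-marker library; against wild type the difference was -1.99, just under 4-fold. Idh3b, a regulatory subunit, stood at 63.8 and 62.3 FPKM in conditional controls, 52.7 and 52.2 in the normal-marker library and 109 and 102 in the aberrant-marker library. Idh3b stood at 60.4 and 58.7 FPKM in wild type and 49.2 and 48 in the germline knockout. Idh3b was highest in the aberrant-marker library. Idh3g, the other regulatory subunit, ranged over 53.9 to 134 FPKM and was lowest in the germline knockout (-1.30 against wild type). The ratio of Idh3a to Idh3b was 0.0601 in the aberrant-marker library and 0.474 to 1.11 in the other 4, while their sum with Idh3g lay between 136 and 222 FPKM in all.

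After isocitrate come alpha-ketoglutarate dehydrogenase and succinyl-CoA synthetase. Ogdh, the decarboxylating subunit of the first, ranged over 36.9 to 106 FPKM and was lower in the aberrant-marker library (-1.50). Dlst, the succinyltransferase core, stood at 23 and 26.6 FPKM in conditional controls, 30.9 in both runs in the normal-marker library and 33.6 and 36.3 in the aberrant-marker library. Dlst stood at 73.6 and 70.8 FPKM in wild type and 21.1 and 21 in the germline knockout. Wild type alone stood high, so that Dlst was -1.73 in the germline knockout against wild type and 1.5 between the controls, and the germline knockout lay near the conditional control. Suclg1, a subunit of succinyl-CoA synthetase, ranged over 30.9 to 92.6 FPKM and was also highest in wild type (-1.55 in the germline knockout), beside Sucla2 at 15.4 to 37 and Suclg2 at 4.8 to 11.8.

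Succinate dehydrogenase, which is also complex II of the respiratory chain, kept a summed level of 460 to 612 FPKM over the 4 subunits. Sdhc, a membrane anchor, stood at 75.3 and 72.8 FPKM in conditional controls, 101 and 99.2 in the normal-marker library and 67.4 and 67.7 in the aberrant-marker library. Sdhc stood at 54.9 and 54.2 FPKM in wild type and 115 and 114 in the germline knockout. Sdhc was higher in the germline knockout than in wild type by the 2-fold rule (1.06). Sdhd, the other anchor, stood at 102 and 103 FPKM in conditional controls, 198 and 196 in the normal-marker library and 178 and 174 in the aberrant-marker library. Sdhd stood at 177 and 174 FPKM in wild type and 135 and 132 in the germline knockout. The conditional control was lowest. Sdhb, the iron-sulphur subunit, ranged over 94 to 213 and was lower in the aberrant-marker library (-1.17). Fh1, fumarase, stood at 55.8 and 56.1 FPKM in conditional controls, 21.5 and 23.5 in the normal-marker library and 19 and 19.5 in the aberrant-marker library. Fh1 stood at 28.5 and 28.6 FPKM in wild type and 57.5 and 56.2 in the germline knockout. The conditional control and germline knockout were high and the other 3 low, including wild type, so its difference is negative in both conditional knockout libraries (-1.28 and -1.49) and positive in the germline knockout (0.97). Mdh1, the cytosolic malate dehydrogenase, ranged over 70.3 to 138 FPKM.

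**Figure D5:**
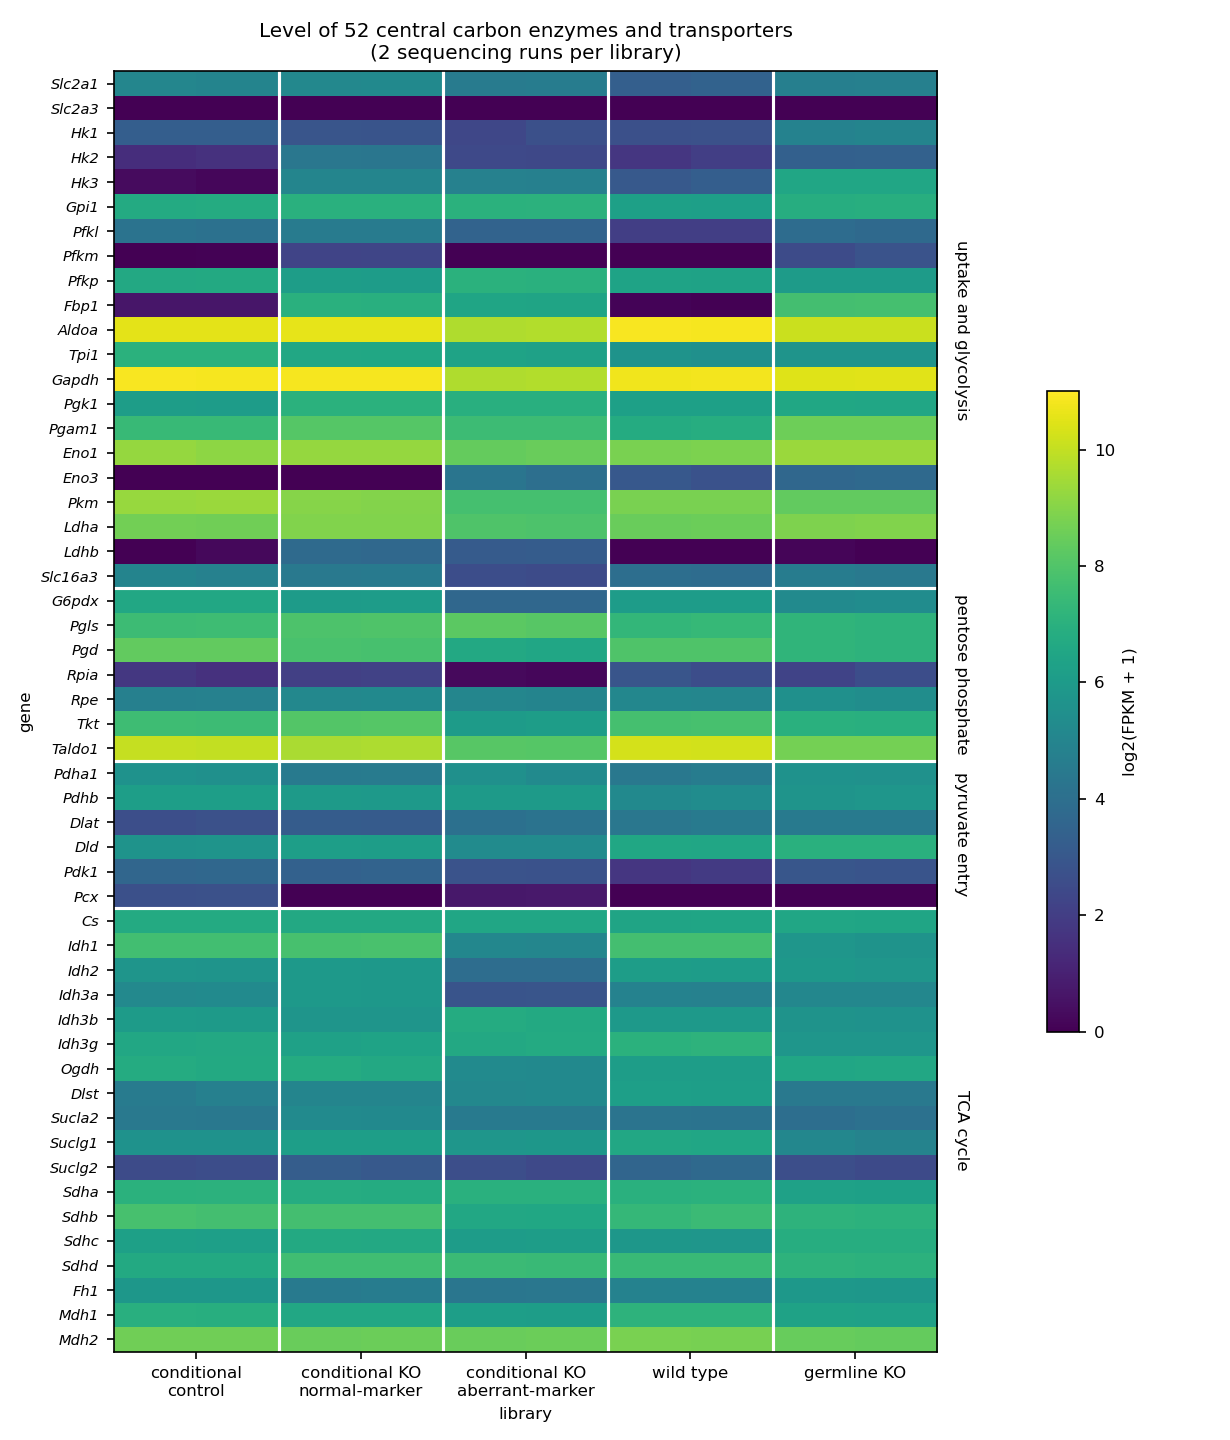
Level of the 52 members (rows, in pathway order) in the 2 runs of each of the 5 libraries (columns), as log2(FPKM + 1) on the colour scale; white lines separate libraries and the 4 branches. The 2 runs of a library look alike throughout, Fbp1 and Hk3 are dark in the conditional control and bright in the knockout libraries, and the rows of G6pdx, Pgd, Rpia, Tkt and Taldo1 are darkest in the aberrant-marker library.

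Of 24 regulators of glycolysis in the table, 20 passed the filter on low values. By the 4-fold rule 1 was higher and 1 lower in the aberrant-marker library against its own control (4.09% and 3.76% of all tested genes). The germline knockout likewise had 1 higher and 1 lower (2.73% and 3.36%), so calls in these libraries were about as frequent as over all tested genes. In the normal-marker library 1 was lower and 0 higher, where 0.838% of all tested genes were lower and 0.935% higher. In the aberrant-marker library Pfkfb3, which makes the sugar phosphate that activates phosphofructokinase and inhibits fructose bisphosphatase, stood at 41.5 FPKM against 0.372 in the conditional control, and Myc, a transcription factor of growth, at 7.3 against 52.9. Pfkfb4, another enzyme of the Pfkfb3 family, stood at 8.17 FPKM in the aberrant-marker library against 41.8 in the normal-marker library. In the germline knockout Txnip, an arrestin-like protein that lowers glucose uptake, stood at 103 FPKM against 501 in wild type. Vhl, which marks hypoxia-inducible factors for destruction, stood at 21.2 against 1.88, where the conditional control was at 21.2. Vhl was highest in the aberrant-marker library, at 74.6 FPKM, and stood at 18.2 in the normal-marker library. Sirt6, a deacetylase, was lower in the normal-marker library (1.44 FPKM against 21 in the conditional control) and listed at 0 in wild type, so its level did not follow the genotype labels.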

How the data were processed

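Per the labels' protocols, cDNA from 100 pg of total RNA a sample was made with a SMARTer kit and 18 cycles of PCR, sheared and made into unstranded libraries without molecular identifiers, so genes that overlap on opposite strands share reads. The deposited values are FPKM made by the authors for 45913 transcripts; the submitters' processing notes list Bowtie 1.1.2 and eXpress 1.5.1 without saying what each did. The sources used here do not state the genome build or filters. Transcript FPKM were added up within each Entrez gene, with pandas 2.3.3 in Python 3.11.15, and logged after adding 1 FPKM. Genes entered the comparisons if 2 or more columns held 1 FPKM or more. The call rule (4-fold in the mean and every choice of runs, 20 FPKM in the higher library) was tested on simulated data. These held known fold changes and sampling noise around the conditional control means, with no spread between libraries or mice. The simulation therefore cannot show how often such spread alone gives a call. Members, lists, the rule and the alternatives were chosen with earlier results of these data known. Full values are given for members called, for a set of main enzymes whatever their change and for the largest differences of each branch; a few others were named after their values were seen. Depth was estimated from the smallest values and is approximate, so no counting interval is given.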

Additional observations from a re-analysis of the deposited data

Results flagged for a closer look

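Members whose difference had opposite signs in 2 knockout comparisons, by at least 0.5 log2 units in every choice of runs and with 20 FPKM or more in the higher library of both comparisons, are listed here; the difference between the comparisons was not tested, since each rests on 1 library a group. Fh1 (fumarase) was -1.49 in the aberrant-marker library and -1.28 in the normal-marker library against the conditional control and 0.97 in the germline knockout against wild type, and the 2 controls themselves stood at 55.8 and 56.1 FPKM and 28.5 and 28.6 FPKM. Pdha1 (pyruvate dehydrogenase) was -1.01 in the normal-marker library against the conditional control and 1.08 in the germline knockout against wild type. Suclg1 (succinyl-CoA synthetase) was 0.56 and -1.55 in the same comparisons. Eno1 (enolase) was -0.73 in the aberrant-marker library against the conditional control and 0.55 in the germline knockout against wild type. Hk1, Pfkl and Pdk1 had opposite signs as well but missed the floor of 20 FPKM in 1 or both comparisons: aberrant-marker against conditional control and germline knockout against wild type, Hk1 (hexokinase) was -0.77 and 2.18, Pfkl (phosphofructokinase) -0.64 and 1.78 and Pdk1 (pyruvate dehydrogenase kinase) -0.87 and 1.1.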

How the results depend on the processing

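With 1 library a group, no difference here separates genotype from mouse, and the cell markers given above move with the groups. The Y-linked transcripts and Xist set wild type and the germline knockout apart from the conditional line, so sex may differ between them despite the labels. Comparisons across them, those against both controls at once included, also cross this split. Its part in any result was not tested. No paired analysis was possible because the labels give no replicate numbers shared between groups and the result comes from no test. The counts of members called in the text (6 for aberrant-marker against conditional control, 2 for normal-marker against conditional control, 3 for aberrant-marker against normal-marker, 3 for germline knockout against wild type and 0 between controls) stayed within 1.5 times with no filter, with size factors and with only the highest transcript of a gene. The 2-fold threshold gave 15, 3, 13, 11 and 4. A floor of 5 FPKM gave 5 for normal-marker against conditional control and 4 between controls. A pseudocount of 0.1 FPKM gave 5 for aberrant-marker against normal-marker, and columns scaled to a common total gave 5 for that comparison and 1 between controls, a scaling that raises all values and lets more genes pass the floor. Leaving out 1 run gave 6 to 6, 2 to 2, 3 to 4, 3 to 4 and 0 to 0. Of 165 alternatives run on the 14 single calls, 157 kept the call, 8 lost it and 0 changed sign; the calls lost were Hk3 (4.24) and Slc16a3 (-2.07) in the aberrant-marker library and Hk1 (1.63) in the germline knockout with the highest transcript only, Hk3, Slc16a3 and Idh3a in the aberrant-marker and Hk3 in the normal-marker library with wild type as reference, and Hk1 in the germline knockout with the conditional control as reference.

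Median log2 differences over members with size factors were -0.14 for aberrant-marker against conditional control, 0.22 for normal-marker against conditional control, -0.54 for aberrant-marker against normal-marker and 0.11 for germline knockout against wild type. With the highest transcript only they were 0.19, -0.56 and 0.034 for the last 3 and -0.092 between controls. Scaling to a common total gave -0.61 for aberrant-marker against normal-marker and 0 for germline knockout against wild type, and a pseudocount of 0.1 FPKM gave -0.25 between controls. Leaving out 1 run gave -0.28 to -0.23 for aberrant-marker against conditional control, 0.12 to 0.17 for normal-marker against conditional control, -0.57 to -0.55 for aberrant-marker against normal-marker, 0.015 to 0.061 for germline knockout against wild type and -0.19 to -0.13 between controls. No scaling moved the median of all tested genes by over 0.1.

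The difference in the log2 ratio of Fbp1 to summed phosphofructokinases was 5.57 for aberrant-marker against conditional control, 6.60 for normal-marker against conditional control, -1.03 for aberrant-marker against normal-marker, 7.71 for germline knockout against wild type and -0.14 between controls. With 0.1 FPKM added it was 6.76, 7.80, 10.54 and -1.77, aberrant-marker against normal-marker apart, which kept its value. With the highest transcript only it was 6.65 for normal-marker against conditional control, -1.08 for aberrant-marker against normal-marker and 7.76 for germline knockout against wild type. Leaving out 1 run gave 5.56 to 5.58, 6.58 to 6.63, -1.06 to -1.01, 7.67 to 7.75 and -0.18 to -0.10. Over all tested genes the count of calls moved by more than 1.5 times with the 2-fold threshold (890 to 2010 for aberrant-marker against conditional control), with the floor of 5 FPKM (to 2180 there), with columns scaled to a common total (201 to 411 for normal-marker against conditional control, 691 to 1048 for germline knockout against wild type and 239 to 495 between controls) and with wild type as reference for the normal-marker library (201 to 319). The cause of these changes was not tested.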

Other observations

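Of 27 genes of TCA shuttles and exits in the table, 23 passed the filter on low values. Of these, 2 were higher and 1 lower in the aberrant-marker library than in the conditional control by the 4-fold rule, near the shares over all tested genes (4.09% and 3.76%). Got1, the cytosolic aspartate transaminase of the malate-aspartate shuttle, stood at 238 and 237 FPKM against 33.1 and 33.5. Sdhaf1, an assembly factor of succinate dehydrogenase, stood at 99.2 and 90.2 FPKM and was listed at 0 in the conditional control, but it was also at 38.8 and 41 in wild type. Glul, glutamine synthetase, stood at 7.26 and 7.04 FPKM against 70.1 and 65.9, and in the germline knockout at 8.42 and 6.41 against 45.6 and 45.9 in wild type. Slc25a1, the mitochondrial citrate carrier, stood at 130.0 and 128 FPKM in the normal-marker library and 20.4 and 16.2 in the aberrant-marker library. None of 31 nuclear genes of oxidative phosphorylation passed the 4-fold rule in any of the 5 comparisons. Of all genes at 20 FPKM or more in either library, 4.7 to 19% did. By the 2-fold rule 1 of the 31 was higher and 1 lower in the aberrant-marker library against its own control. In the germline knockout 2 were higher and 1 lower, and the medians were -0.05 and 0.09. Among all genes at 20 FPKM or more, 20.8% were higher and 22.1% lower by that rule in the aberrant-marker library. The shares were 15.6% and 22.9% in the germline knockout.

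Single genes of glycogen handling and of other isoenzymes are given next, each named after its values were seen. Pygl, the liver form of glycogen phosphorylase, stood at 118 and 119 FPKM in conditional controls, 95.1 in both runs in the normal-marker library and 3.6 and 3.89 in the aberrant-marker library. Pygl stood at 172 and 168 FPKM in wild type and 13.9 and 13 in the germline knockout, lowest in the aberrant-marker library and next lowest in the germline knockout. It was the 1 gene of the 14 tested in the gluconeogenesis and glycogen list that was lower in either of these libraries than in its own control by the 4-fold rule. Of all tested genes 3.76% were lower in the aberrant-marker library and 3.36% in the germline knockout by that rule. Pygb, the brain form of the phosphorylase, stood at 12.1 FPKM in the aberrant-marker library against 4.99 in the conditional control, and Gaa, the lysosomal glucosidase that breaks down glycogen, at 78 against 39.6. Pgm2, a phosphoglucomutase, was 20.8 FPKM in the normal-marker library against 2.81 in the conditional control, and 17.2 in wild type. Eno2, the neuronal enolase, stood at 38.6 and 39.7 FPKM in the aberrant-marker library and 4.45 and 5.69 in the germline knockout, and at 0.0479 FPKM or less in every other column. Pgam5, a mitochondrial phosphatase of the mutase family, stood at 60.7 FPKM in the germline knockout against 5.34 in wild type and 30.7 in the conditional control. Among genes of pyruvate entry control, Lias, which makes the lipoyl cofactor, stood at 28.9 FPKM in the aberrant-marker library against 5.48 in the conditional control, and Pdk2, a kinase of pyruvate dehydrogenase, at 27.2 in the normal-marker library against 4.25.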
